A study of Mus musculus with 15 samples.

Results

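Replication licensing genes were followed in 15 RNA-Seq libraries of mouse pancreas: Mcm2, Mcm3, Mcm4, Mcm5, Mcm6, Mcm7, Mcm10, Cdc6, Cdt1 and Pcna, which are 10 of the 49585 genes listed. The set was chosen by the levels of Mcm6, which were higher in the libraries labelled HC than in their controls while cell cycle genes were lower, so that comparison is described without a test. In MC mice, tamoxifen-induced Cre under an acinar elastase promoter (Bac-cre) switches on M46, a kinase-dead form of the kinase HPK1, and in HC mice it switches on HPK1 itself. The study compared 3 MC libraries with 3 MC control libraries (labelled B control, age 2 months) and 3 HC libraries (HPK1/B) with 2 HC control libraries (labelled WT, age 4 months). All mice of both experiments had been given cerulein, a peptide that causes acute pancreatitis. It also compared 2 KMC libraries (M46 and Bac-cre, age 9 months) with 2 KC libraries (Bac-cre without M46, age 15 months). The study describes these as tumor samples, while the labels call them pancreas. All groups were of the C57BL/6 strain, and each library held RNA pooled from 3 mice by the labels, while the study's text gives other ages and numbers of mice for the cerulein experiments. Transgenes were driven only in acinar cells, whereas the RNA came from whole tissue. The p-values therefore measure the spread between pooled libraries.

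Before S phase, the origin recognition complex, CDC6 and CDT1 load the ring of MCM2 to MCM7 onto DNA, and this step licenses an origin to fire. MCM10 helps the loaded ring to become an active helicase, PCNA is the sliding clamp that holds the DNA polymerases, and geminin blocks CDT1 after replication has begun. Most of these genes are transcribed under E2F factors in late G1, whereas genes of mitosis are switched on later, in G2 and M.

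Promoter sequence of 9 members was taken from RefSeq (GRCm38.p6), as windows from 250 bases before to 50 bases after each start site. An E2F-like sequence, TTTNNCGC on either strand with overlapping matches allowed, was present in 6 of the 9 members (66.7%), against 1602 of 27025 genes (5.93%). It was present in 10 of 27 matched genes of the replication fork (37%) and in 1 of 22 matched mitotic genes (4.55%). The CCAAT box was found in 7 members (77.8%), in 19 mitotic genes (86.4%) and in 41.1% of all genes. The sequence TTTGAA, the core of the cell cycle homology region of many mitotic promoters, was found in 1 member (11.1%), Mcm2, in 16 mitotic genes (72.7%) and in 20.2% of all genes. The share with E2F-like letters was thus high among the 9 members and low among the mitotic genes, and the share with TTTGAA the other way round. These are matches of letters, and nothing about binding was measured.

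Stretches of 160 bases are shown for Mcm6, the member with the largest difference in the libraries labelled HC, and for Mcm5, a subunit of the same ring that was lower there. Both run from 180 to 21 bases before the start site, and capitals mark E2F-like matches, which overlap in both genes. The Mcm6 stretch lies at chr1:128359726-128359885 on the minus strand and the Mcm5 stretch at chr8:75109329-75109488 on the plus strand.
Mcm6: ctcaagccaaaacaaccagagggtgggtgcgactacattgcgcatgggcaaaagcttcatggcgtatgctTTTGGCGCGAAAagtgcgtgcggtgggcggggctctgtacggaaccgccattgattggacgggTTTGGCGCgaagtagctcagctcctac
Mcm5: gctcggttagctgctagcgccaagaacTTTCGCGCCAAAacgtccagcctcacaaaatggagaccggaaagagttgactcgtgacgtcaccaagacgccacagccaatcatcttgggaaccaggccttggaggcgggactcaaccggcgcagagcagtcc
Mcm6 held 3 matches, starting 110, 106 and 47 bases before the start site, and Mcm5 held 2, starting 153 and 149 bases before it. Mcm7 had matches 165 bases before and 16 bases after its start, and Cdc6 had a match 138 bases before it. In Mcm3 the matches began 19 and 38 bases after the start, and in Cdt1 32 bases after it. The windows of Mcm2, Mcm10 and Pcna held none.

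**Figure D1:**
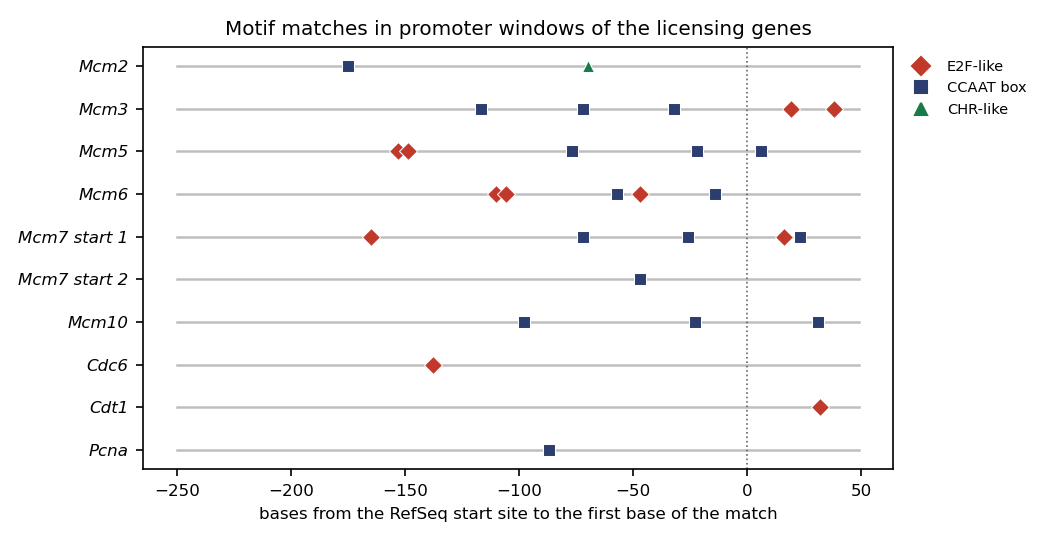
Positions of E2F-like (TTTNNCGC), CCAAT and CHR-like (TTTGAA) matches in the promoter windows of 9 licensing genes; the x axis gives bases from the RefSeq start site, and each line is a window of 250 bases before to 50 bases after it. E2F-like matches are in 6 genes, with 3 in Mcm6, and the only TTTGAA match is in Mcm2.

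The authors deposited raw counts per gene. Totals ranged from 29766575 to 38745907 counts per library (median 33658995), and the members had between 22 and 1815 counts, so all 10 passed the low-count filter in each comparison. Levels are CPM, counts over library size after TMM scaling, and they were tested only within each table. The acinar list (28 genes, 27 of them listed in the MC table) took 36.3 to 54.2% of counts in the MC table, 5.66 to 8.86% in the HC table and 24.0 to 66.5% in the KMC table. Map4k1, which encodes HPK1, was at 7.33, 5.05 and 7.93 CPM in the libraries labelled HC and at 15.4 and 11.5 CPM in their controls, which goes against that label. Ptprc, the pan-leukocyte marker CD45, was also lower there, at 62.6, 35.1 and 49 CPM against 116 and 72.6 CPM. Each direction drawn from these libraries rests on their labels. In MC libraries Map4k1 was at 8.32, 6.79 and 7.51 CPM against 3.80, 4.14 and 2.34 CPM in controls. In KMC libraries it was at 5.92 and 11.4 CPM against 0.545 and 1.55 CPM in KC libraries. Ptprc was higher in MC libraries as well, and in KMC, at 33.4 and 58.6 CPM against 3.13 and 10.1 CPM in KC libraries. The part of leukocytes in the Map4k1 values was not tested.

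Per kilobase of exon, Pcna had the highest level in all 6 groups, with a mean between 8.70 CPM per kb in KMC and 18.3 CPM per kb in the libraries labelled HC. Mcm10 and Cdc6 were lowest throughout, at 0.234 to 0.399 and 0.534 to 0.666 CPM per kb. Mcm6 ranked second in 5 of the 6 groups, from 3.5 ± 1.59 CPM per kb in KC (SD, n = 2) to 10.6 ± 0.731 in the libraries labelled HC (SD, n = 3). Its next neighbour, Mcm7, differed from it by less than the spread between libraries in the MC controls (8.03 ± 2.22 for Mcm6 and 6.73 ± 0.292 for Mcm7, SD, n = 3) and in KC. The exception was the HC controls, where Mcm6 was at 4.22 ± 0.255 CPM per kb (SD, n = 2), below Mcm7, Mcm4 and Mcm3 as well as Pcna.

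**Figure D2:**
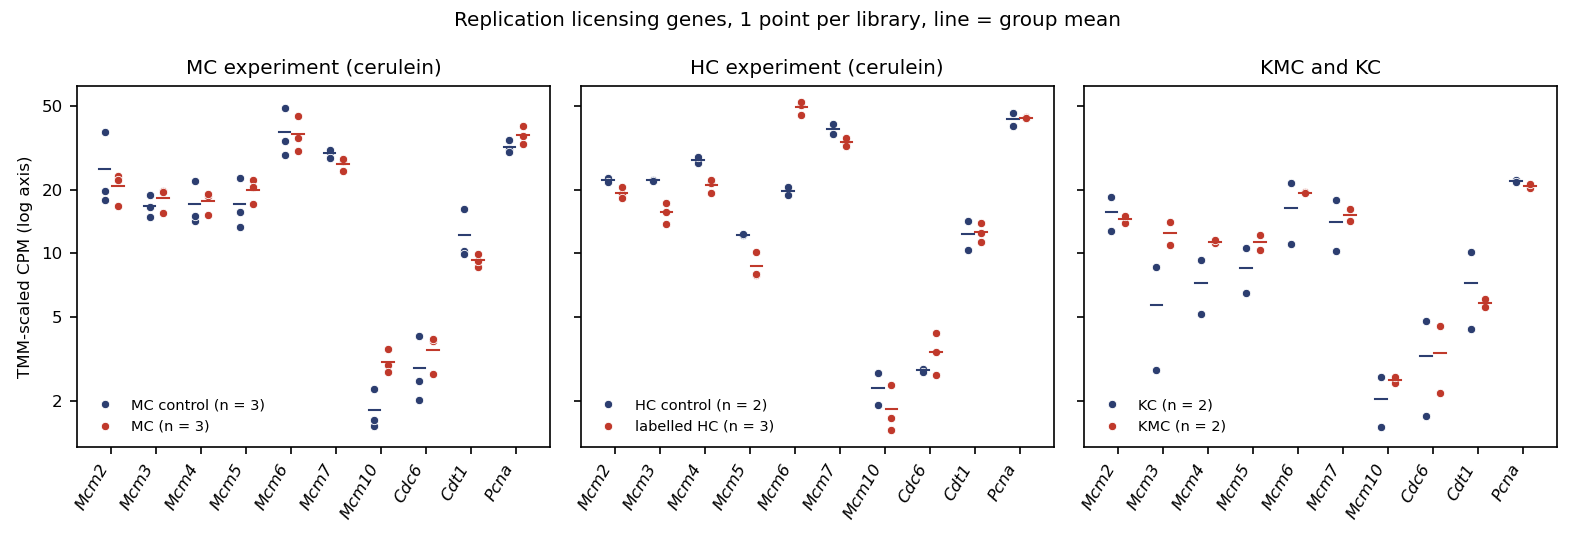
TMM-scaled CPM (log axis) of each licensing gene in each of the 15 libraries, with groups in colour and a line at the group mean. In the libraries labelled HC, Mcm6 lies between 45.4 and 51.9 CPM against 18.8 and 20.5 CPM in their controls, while 5 other subunits lie below their controls.

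Mcm6, a subunit of the MCM ring (chr1:128331590-128359664, minus strand, GRCm38, no overlapping gene in GENCODE), had 50.5, 45.4 and 51.9 CPM in the libraries labelled HC and 18.8 and 20.5 CPM in their controls. The groups did not overlap, and the lowest of these HC libraries exceeded the higher control by more than the whole range within either group. The means were 49.3 ± 3.41 (SD, n = 3) and 19.7 ± 1.19 CPM (SD, n = 2), a 2.50-fold difference and a log2 fold change of 1.32 (SE 0.11). The other 5 subunits of the ring went the opposite way, each below both controls.

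Mcm3 (chr1:20802968-20820312, minus strand) had 15.7, 13.8 and 17.3 CPM against 22.4 and 22.1 CPM in controls, a log2 fold change of -0.51 (SE 0.14). Mcm5 (chr8:75109569-75128439, plus strand) had 7.89, 7.95 and 10.2 CPM against 12.3 in both controls, a log2 fold change of -0.50 (SE 0.18). Mcm4 (chr16:15623897-15637400, minus strand) had 21.6, 19.4 and 22.2 CPM against 26.9 and 28.5, a log2 fold change of -0.39 (SE 0.12). These 3 subunits, which sit in the same ring as Mcm6, had the lowest log2 fold changes among the members. Mcm2 (chr6:88883474-88898780, minus strand) was at 19.0, 18.3 and 20.5 CPM against 22.8 and 21.9 (log2 fold change -0.21, SE 0.12). Mcm7 (chr5:138164583-138172422, minus strand) was at 33.4, 35.1 and 32.4 CPM against 36.7 and 41.1 (log2 fold change -0.21, SE 0.10). Mcm7 overlaps Cops6 and Ap4m1 on the opposite strand and holds Mir25, Mir93 and Mir106b, and how strand was treated in counting is not given in the sources used here, so its value is less certain.

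The loading factors and the clamp overlapped between the groups. Cdc6 (chr11:98907801-98923940, plus strand) had 3.40, 4.19 and 2.66 CPM against 2.84 and 2.74 in controls, and its range took in both controls. Cdt1 (chr8:122568015-122573554, plus strand) had 11.3, 12.5 and 13.9 CPM against 10.4 and 14.2, all HC libraries lying between the controls. Gm20388, which overlaps Cdt1 on the same strand, had 0 counts in this table. Mcm10 (chr2:4989714-5012791, minus strand) was at 1.45, 1.65 and 2.38 CPM against 2.70 and 1.92. Pcna (chr2:132249162-132253314, minus strand) was at 44.1, 43.8 and 43.9 CPM against 40.1 and 46.2. The log2 fold changes of these 4 genes were 0.29 (SE 0.27), 0.03 (SE 0.19), -0.34 (SE 0.33) and 0.03 (SE 0.10), in the order given, and none was separated from its controls. Pcna-ps2, a pseudogene that can share reads with Pcna, had 126 counts in HC control 1 against 10 to 23 in the other 4 libraries of the table.

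In all, 1 of 10 members was higher without overlap in the libraries labelled HC, against 17.5% of the 18407 genes tested, and 5 were lower without overlap, against 16.1%. Since the choice of members used this contrast, nothing is read from these counts. The median log2 fold change was -0.21 over the members and -0.00 over all genes tested. By sign, 4 members were above 0 (49.8% of all genes were) and 6 below (50.2%). With 3 other scalings (totals alone, totals less the acinar genes, and the housekeeping list) 8 members were below 0. These scalings put the median of all genes at -0.03 to -0.04, and 4 members lay above that median under each, as under TMM.

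Several features of the tissue differed between the same libraries. The stomach list (10 of 11 genes listed, none at 0 throughout) summed to 8176 to 8319 CPM in the libraries labelled HC against 1848 to 3269 CPM in controls. The B cell list (10 genes) was at 19.8 to 21.3 against 37.0 to 55.6 CPM, the plasma cell list (7 genes) at 1750 to 1810 against 2473 to 2826 CPM, and the macrophage list (12 genes) at 1793 to 2706 against 2909 to 4625 CPM. The ductal list (12 genes) was at 8444 to 10160 against 7123 to 7719 CPM. Their part in the differences of the licensing genes was not tested, and in such bulk tissue fewer cells of a type and less RNA per cell cannot be told apart. HC 3 differed from the other libraries in sex, since it had Ddx3y, a Y-linked gene, at 47.9 CPM and Xist at 0.753 CPM, where the other 4 had 573 to 959 CPM of Xist. Without HC 3 the log2 fold change of Mcm6 was 1.27.

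The genes on either side of Mcm6 were chosen after their values were seen. Dars, 4043 bp away, had a log2 fold change of 0.28 (SE 0.11) and Ubxn4, 52212 bp away, of -0.05 (SE 0.09). Lct, 3272 bp away, had 5, 15 and 4 counts against 2 and 0, too few to pass the filter. Farther away, R3hdm1 was at -0.14 (SE 0.10), Cxcr4 at -0.49 (SE 0.17) and Zranb3 at -0.37 (SE 0.18). Without overlap, Dars was higher (17.5% of all genes were) and Cxcr4 and Zranb3 were lower (16.1%).

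The same members were then followed in MC mice, the experiment that the choice of members did not use. None of the 10 was differentially expressed (adjusted p of at most 0.05 and absolute log2 fold change of at least 1) by edgeR's quasi-likelihood test, which called 0% of the 13902 genes tested. DESeq2 called 0 of the 10 members as well, although it called 3.26% of genes. Without MC control 2, edgeR called 4.8% of genes as higher, and again 0 members. At an unadjusted p under 0.05, 1 member was higher and 0 were lower, against 9.2% and 5.46% of all genes. The median log2 fold change was 0.09 over the members and -0.02 over all genes, with 6 members above 0 and 4 below (46.9% and 53.1% of all genes).

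Mcm6 had 30.5, 35.2 and 44.8 CPM in MC libraries and 29.2, 34.2 and 49.1 CPM in controls. The ranges overlapped almost wholly, and the log2 fold change was -0.02 (SE 0.22, adjusted p = 0.966 by edgeR's quasi-likelihood test). The highest TMM-scaled value of the experiment was in MC control 3, and without this library the log2 fold change was 0.23. By total counts MC control 3 was at 34.6 CPM, below MC 3 at 53.9 CPM. Mcm2, another subunit, had 16.7, 23.3 and 22.3 CPM against 19.7, 17.9 and 37.4 CPM, a log2 fold change of -0.26 (SE 0.29, adjusted p = 0.666). Here too MC control 3 was the highest of the 6 libraries after TMM scaling, and without it the sign turned (log2 fold change 0.17). By total counts it was at 26.4 CPM, below MC 2 at 29.1 CPM. Mcm3, Mcm4 and Mcm5 had log2 fold changes of 0.12, 0.05 and 0.22, with adjusted p from 0.612 to 0.904, and their groups overlapped. Mcm7 was at 24.4, 27.4 and 27.9 CPM against 30.2, 28.3 and 30.8 CPM. It was the only member lower without overlap, against 9.89% of all genes, and its log2 fold change of -0.16 (SE 0.11) did not pass the test (adjusted p = 0.469).

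Mcm10, the factor that helps activate the loaded ring, had 2.94, 2.75 and 3.51 CPM in MC libraries against 1.52, 2.26 and 1.62 CPM in controls. All 3 MC libraries lay above all 3 controls, which held for 10.9% of genes, and no other member was higher without overlap. The log2 fold change was 0.76 (SE 0.25), with an adjusted p of 0.252 in edgeR's quasi-likelihood test. It remained positive without any of the 6 libraries, from 0.65 to 0.96, with adjusted p from 0.0622 to 0.68. At 36 to 142 counts per library, Mcm10 was the least deeply counted member.

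The loaders and the clamp did not differ beyond the spread between libraries. Cdc6 had 2.67, 3.85 and 3.93 CPM against 2.48, 2.02 and 4.04 CPM (log2 fold change 0.30, SE 0.31, adjusted p = 0.63). Cdt1 had 8.59, 9.21 and 9.97 CPM against 10.3, 9.97 and 16.2 CPM (log2 fold change -0.39, SE 0.21, adjusted p = 0.406). Pcna had 33.1, 36.0 and 40.0 CPM against 31.3, 34.3 and 30.2 CPM (log2 fold change 0.19, SE 0.11, adjusted p = 0.446). After TMM scaling, Cdc6 and Cdt1 both had their highest value in MC control 3, and without it their log2 fold changes were 0.65 and -0.12. By total counts MC control 3 was at 2.85 and 11.4 CPM, below MC 2 for Cdc6 (4.80) and MC 3 for Cdt1 (12).

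Some immune markers were also higher in MC libraries. Ptprc was at 38.3, 41.0 and 52.4 CPM against 13.4, 19.8 and 8.40 CPM in controls. The T cell list (11 of 12 genes listed) summed to 13.7 to 15.8 against 1.90 to 4.50 CPM, and the B cell list to 9.18 to 87.7 against 1.55 to 5.58 CPM. The macrophage list (12 genes) overlapped, at 1124 to 1995 against 409 to 1630 CPM, and so did the neutrophil list (5 of 10 genes listed), at 22.2 to 48.6 against 4.88 to 55.6 CPM. Their part in the values of Mcm10 was not tested.

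In KMC against KC libraries, 0 of 10 members were differentially expressed by edgeR's quasi-likelihood test, which called 3 of 15733 genes (0.0191%). DESeq2 also called 0 members, and called 14.9% of genes. At an unadjusted p under 0.05 there were 0 members in either direction, against 16.1% of genes higher and 9.48% lower. The median log2 fold change was 0.17 over the members and 0.03 over all genes, with 7 members above 0 (51.3% of all genes) and 3 below (48.7%).

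Mcm3 had 11.0 and 14.1 CPM in KMC libraries and 2.79 and 8.63 CPM in KC libraries, the largest difference of any member here. The groups did not overlap, as in 34.4% of genes that were higher, and the log2 fold change of 1.12 (SE 0.52) did not pass the test (adjusted p = 0.222 by edgeR). Without KC 1 it was 0.53, and without KC 2 it was 2.16. Mcm4 had 11.1 and 11.6 CPM against 5.17 and 9.33 CPM, also without overlap (log2 fold change 0.64, SE 0.38, adjusted p = 0.313). Library size alone as scaling, which puts the median of all genes at 1.47, called both of these genes. The share of all genes called that way is not given. The acinar list took 58.4 to 66.5% of counts in KC libraries and 24.0 to 47.7% in KMC libraries.

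Mcm6 was at 19.5 and 19.3 CPM in KMC libraries, between the KC values of 11.1 and 21.6 CPM. Its log2 fold change was 0.24 (SE 0.38, adjusted p = 0.717), and it was -0.17 without KC 1. Mcm2, Mcm5 and Mcm7 had log2 fold changes of -0.11, 0.39 and 0.11, with adjusted p from 0.515 to 0.872, and their groups overlapped. Cdc6 was at 4.55 and 2.2 CPM against 1.70 and 4.80 CPM, the KMC libraries lying between the KC libraries. Cdt1 was at 6.07 and 5.55 CPM against 4.36 and 10.1 CPM, also between them. Mcm10 was at 2.43 and 2.59 CPM against 1.5 and 2.59 CPM. Pcna, at 20.5 and 21.3 CPM against 22.3 and 21.9 CPM, was the only member lower without overlap, as in 30.9% of genes, and differed least in level between KC 1 and KC 2. The other 9 members were lower in KC 1 than in KC 2. For these 4 genes adjusted p ran from 0.676 to 0.987.

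In this comparison age and sex differed together with the genotype and cannot be told apart from it. Both KMC libraries had 504 and 663 CPM of Xist and 0 counts of Ddx3y, while KC libraries had 5.2 and 13.2 CPM of Ddx3y and at most 0.331 CPM of Xist. The macrophage list summed to 1287 and 6924 CPM in KMC against 185 and 256 CPM in KC libraries, and the fibroblast list (10 genes) to 3055 and 17050 against 226 and 773 CPM. The part of these cells in the licensing genes was not tested.

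**Figure D3:**
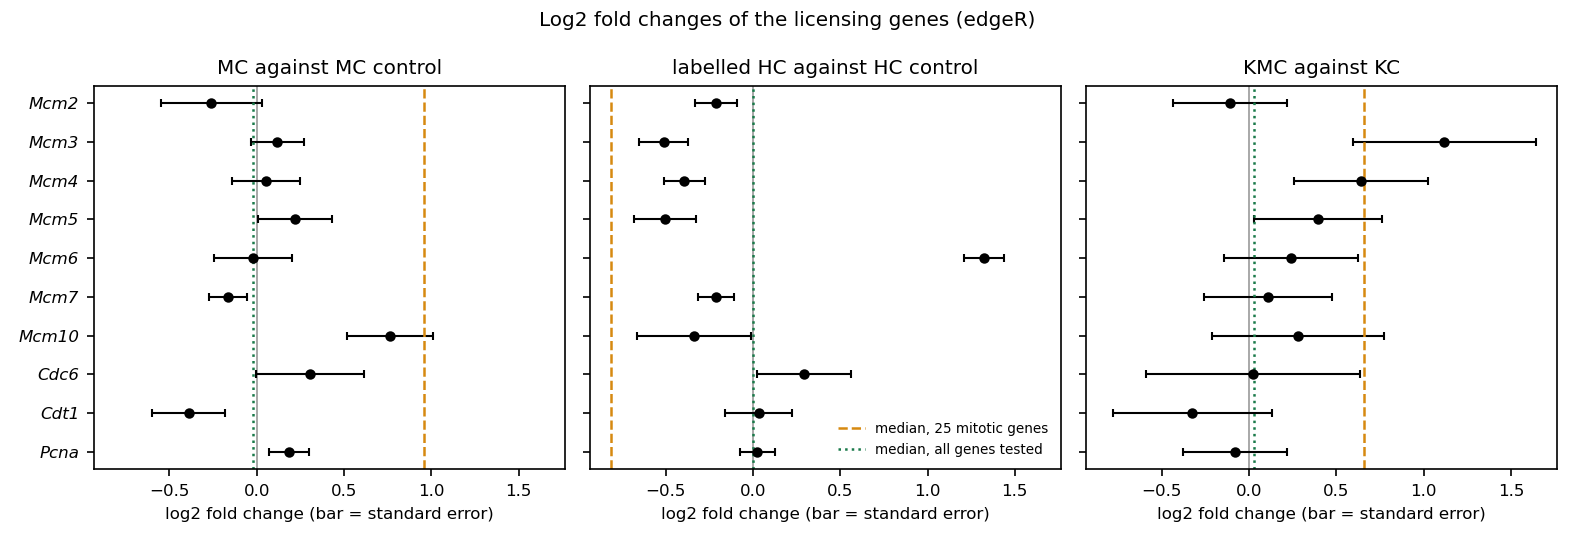
Log2 fold change (points) with its standard error (bars) for each licensing gene in the 3 comparisons, with the medians of 25 mitotic genes (dashed) and of all genes tested (dotted). Mcm6 stands at 1.32 in the libraries labelled HC, a description since it was chosen there, and at -0.02 in MC and 0.24 in KMC.

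To set Mcm6 against its own complex, its CPM was divided in each library by the geometric mean of Mcm2, Mcm3, Mcm4, Mcm5 and Mcm7. This ratio was 2.87, 2.69 and 2.70 in the libraries labelled HC and 0.827 and 0.879 in their controls. The other 10 libraries, of MC, MC control, KC and KMC, lay between 1.49 and 2.07. The libraries labelled HC were thus above, and their controls below, every library of the other experiments, although levels across tables were not tested. The log2 difference was 1.69 in the HC experiment. Since Mcm6 was chosen by its higher level there, the HC ratios follow from that choice and are a description.

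In the MC experiment the ratio was 1.75, 1.59 and 2.07 in MC against 1.66, 1.88 and 1.92 in control libraries. The log2 difference of -0.02 was within the spread (exact permutation test, two-sided, p = 0.9, where 0.1 is the smallest p that 3 against 3 libraries can give). In KMC libraries it was 1.53 and 1.49 against 1.69 and 1.75 in KC libraries. That log2 difference of -0.19 gave p = 0.333 in the exact test, which is the smallest p for 2 against 2 libraries.

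**Figure D4:**
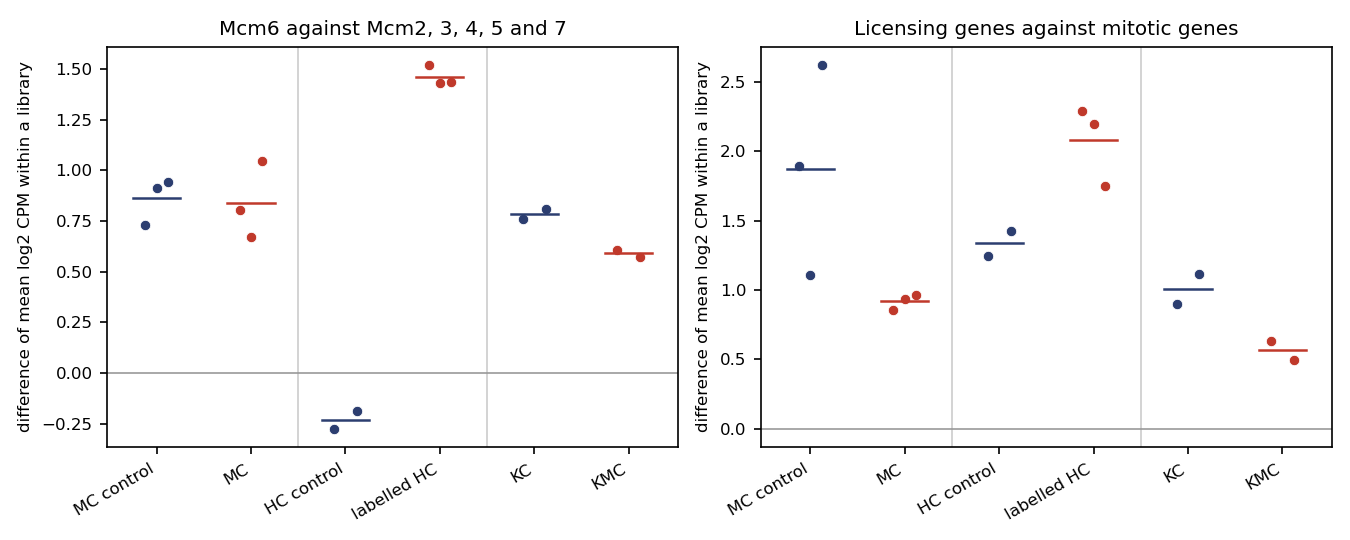
Differences of mean log2 CPM within each of the 15 libraries (points; line, group mean): left, Mcm6 less the mean of Mcm2, Mcm3, Mcm4, Mcm5 and Mcm7; right, the 10 licensing genes less 25 mitotic genes. On the left the libraries labelled HC lie at 1.43 to 1.52 and their controls at -0.27 and -0.19. On the right MC lies below its controls and HC above. Both HC patterns are descriptions, since the members were chosen there.

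The partners of the members were counted by direction. Of 22 other origin and licensing genes (the ORC subunits, the CDC7 and DBF4 kinase, geminin and others), 11 were above and 11 below 0 in MC, with a median log2 fold change of -0.01. None was differentially expressed there. Ticrr, which helps load CDC45 at origins, was highest (0.90, adjusted p = 0.321 by edgeR) and Orc5 lowest (-0.36, adjusted p = 0.358). In KMC the median was 0.26, with 15 above 0 and 0 called, from Ticrr (1.18, adjusted p = 0.26) to Orc4 (-0.47, adjusted p = 0.356). Lower cell cycle genes in the libraries labelled HC were part of the choice, so the HC counts of this and the following lists are descriptions. Against HC controls, 18 of 22 were below 0 in these libraries, against 50.2% of all genes. Gmnn, which encodes geminin, the inhibitor of CDT1, was the highest there at 0.41, and Ticrr was the lowest at -1.0. Orc6, Orc1, Cdc7, Dbf4 and Cdc45 lay between -0.34 and -0.05.

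Of 32 genes of the replication fork and DNA synthesis, 24 were above 0 in MC (46.9% of all genes were) and 0 were called, from Clspn, a mediator of the replication checkpoint (0.70, adjusted p = 0.302 by edgeR), to Pold2, a subunit of polymerase delta (-0.35, adjusted p = 0.417). In KMC, 22 were above 0 (51.3% of all genes) and 0 were called, with Pole2 highest (0.91) and Pold2 lowest (-0.98). Below 0 in the libraries labelled HC were 23 of the 32, from Pole (0.32), the catalytic subunit of polymerase epsilon, to Clspn (-1.01).

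Among 23 regulators of the G1/S transition, 0 were called in MC or in KMC. Ccna2, which encodes cyclin A2, was highest in MC (1.01, adjusted p = 0.22 by edgeR) and Myc lowest (-0.74, adjusted p = 0.139). Ccnd1, encoding cyclin D1, was highest in KMC (1.45, adjusted p = 0.132) and the phosphatase gene Cdc25a lowest (-1.38, adjusted p = 0.133). There were 18 below 0 in the libraries labelled HC, including E2f8 at -1.19, Ccna2 at -1.0, Ccne1 at -0.76 and E2f1 at -0.52, while Cdc25a was at 0.52.

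The mitotic list, whose genes are switched on after replication, was described in the same way. All 25 genes were above 0 in MC (median 0.96), and 22 had an unadjusted p under 0.05 (9.2% of all genes), although 0 were called after adjustment. Cenpe, a kinesin of the kinetochore, was highest at 1.36 (adjusted p = 0.119 by edgeR), and Ttk, a kinase of the spindle checkpoint, was lowest at 0.63. The proliferation marker Mki67 was at 1.09 (adjusted p = 0.25) and Top2a, encoding topoisomerase II alpha, at 0.89 (adjusted p = 0.215). In KMC, 21 were above 0 (median 0.66), 5 of them with an unadjusted p under 0.05 (16.1% of all genes) and 0 called, from Kif23 (1.54) to Ube2c (-0.30). Of the 25, 24 were below 0 in the libraries labelled HC (median -0.81), with Mki67 at -0.94, Top2a at -0.81 and Cenpf lowest at -1.13. Plk1, a mitotic kinase, was the only one above 0 there, at 0.93.

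Within each library, the mean log2 CPM of the 10 members less that of the 25 mitotic genes was then computed, a measure chosen after the data were seen. It was 0.86, 0.94 and 0.97 in MC and 1.89, 1.11 and 2.62 in MC control libraries, where MC control 3, the highest, also had the lowest summed mitotic level. In the libraries labelled HC it was 2.29, 2.20 and 1.75, against 1.24 and 1.43 in controls. In KMC it was 0.64 and 0.49, against 0.90 and 1.12 in KC libraries. The groups did not overlap in MC, with a difference of -0.96 (-0.58 without MC control 3), or in KMC, with -0.44. Of single genes, 9.89% were lower without overlap in MC and 30.9% in KMC, but these shares are no background for a difference between list means. In the libraries labelled HC the difference was 0.74, also without overlap, which restates the choice of members and is a description.

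The members also varied together inside groups to different degrees. After each gene's log2(CPM + 0.5) was centred on its group means, Mcm4 lay nearest to the mean of the other 9 members over the 15 libraries (root mean square difference 0.058), and none of 11806 genes lay nearer. Mcm6 lay at 0.0924, with 0.229% of genes nearer, and Mcm5 at 0.0984, with 0.288% nearer. Both departed most from their group means in KC 1 and KC 2, by -0.41 and 0.41 for the members and -0.47 and 0.47 for Mcm6. In HC 1, HC 2 and HC 3 they were less alike, at -0.042, -0.033 and 0.075 for the members and 0.038, -0.114 and 0.076 for Mcm6. Pcna (0.221), Mcm10 (0.22) and Cdc6 (0.261) were the farthest, with 25.1 to 42.5% of all genes nearer. The genes outside the list nearest to the members' mean were Ptprj, Pcm1, Zfp984, Usp9x and Ranbp2 (0.0626 to 0.0673, where the median of all genes was 0.278). Those nearest to Mcm6 were Ranbp2, Pik3c2a, Apc, Zfp407 and Fmr1 (0.0792 to 0.0993, median 0.322). The 15 points share their scaling and depth within a table, so these are descriptions.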

How the data were processed

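RNA was extracted from pancreas pooled from 3 mice per library and sequenced as paired-end reads from a stranded Illumina library. Reads were aligned by the authors to GRCm38 (STAR), who deposited raw counts for each GENCODE gene, without normalization, in a table for each experiment. The submitters' processing notes list bcl2fastq 2.17.14, STAR 2.6.1a, HTSeq 0.6.1 and DESeq2. All 15 count columns were mapped to samples and 0 were left unused. The MC table lists 15175 genes and the others 49585. A deposited table of the authors' own MC comparison, with fold changes and p-values, was not used.

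Within each pair of groups, low genes were removed by filterByExpr, TMM factors were applied, and glmQLFit with glmQLFTest of edgeR 4.0.16 (R 4.3.3) was run, with Benjamini-Hochberg adjustment over all genes tested. Standard errors are the log2 fold change over the square root of F. Summed cell type lists, Xist and Ddx3y are CPM by total counts, all other CPM are TMM-scaled. A count of 0 allows up to 3 counts, or 0.0774 to 0.101 CPM at these depths, for counting error only. Alternatives were DESeq2 1.42.0, other scalings and filters, a newer form of the fit, the replicate number as a block and leaving out each library. The tests were first tested on simulated counts. Of 100 genes with a simulated log2 fold change of 1, 28% were called in MC and 3% in KMC. By adjusted p alone 50% and 3% passed. With a log2 fold change of 2, 95% and 58% were called. A count of 0 members called therefore leaves differences of the smaller size open in both, and in KMC those of the larger size as well. Among unchanged genes the simulation called 11 in MC and 14 in KMC. The real MC counts gave 0 called genes, so the simulated shares may be too high for them.

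The members, lists and the rule for named genes were chosen with earlier results of these data known. Named genes were the members, 13 fixed genes, the highest and lowest of each list and the 5 nearest profiles. The neighbours of Mcm6 and Plk1's direction were singled out after values were seen. Replicate numbers did not pair MC samples by a correlation over 0.1 in every pair (0.0762, 0.313 and -0.347). With 2 numbered pairs they were above it, at 0.214 and 0.202 in HC and 0.101 in KMC. In groups of 2 libraries the centred values mirror each other, so these correlations cannot decide a pairing. Exon lengths were unions of GENCODE M21 exons. Promoter windows were matched by symbol for 9 members, with no entry for Mcm4. A further allele that KMC and KC mice have in common is not reported here.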

Additional observations from a re-analysis of the deposited data

Results flagged for a closer look

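The balance of licensing over mitotic genes, the mean log2 CPM of the 10 members less that of the 25 mitotic genes in each library, moved in opposite directions in the MC and HC experiments. In MC it was lower than in every control, with a difference of -0.96 (-0.58 without MC control 3). In the libraries labelled HC it was higher than in both controls, with a difference of 0.74. The measure was chosen after the data were seen. Median log2 fold changes in MC were 0.09 for the members and 0.96 for the mitotic genes. In the libraries labelled HC they were -0.21 and -0.81, so the larger shift was in the mitotic genes both times. Every library of each experiment lay on its side of the controls, but the difference between the experiments was not tested, since they were deposited as separate tables with controls of different genotype and age. Map4k1 was lower in the libraries labelled HC than in their controls, so this direction rests on the labels. The members were chosen because Mcm6 was higher and cell cycle genes lower in these libraries, so the HC value restates that choice and is a description.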

How the results depend on the processing

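Members called in MC stayed at 0 under all 14 alternatives, where the main fit called 0% of all genes. In MC, library size alone put the median of the members at 0.45, where all genes were at 0.29, and gave 0.17 for Mcm2, 0.36 for Mcm6 and 0.17 for Mcm7. Library size without acinar genes gave 0.11 for Mcm6. Leaving out a library moved Mcm6 in MC from -0.19 to 0.23, Mcm4 from -0.069 to 0.29 and Mcm2 from -0.46 to 0.17. In KMC the count of members called was 2 (Mcm3 and Mcm4) by library size alone, and 1 with the replicate block, where Mcm3 had a log2 fold change of 1.31 (adjusted p = 0.0398 by edgeR). Library size alone put the median of all KMC genes at 1.47. Shares of all genes called under these settings are not given, so nothing is read from these counts. The replicate numbers share no stated animal or batch, and the block changed no other call. The KMC median was 1.52 by library size alone and 0.80 without acinar genes, and lay between -0.12 and 0.77 when a library was left out, with 0.77 without KC 2 and -0.12 without KC 1. In KMC, Mcm2 was at 1.3 by library size alone, 0.54 without acinar genes and 0.28 on the housekeeping list, Cdt1 at 1.0 and 0.28 under the first and second of these, and Pcna at 1.38, 0.59 and 0.39, and at 0.0077 with no filter. Cdc6 in KMC was at -0.0081 with DESeq2 size factors and -0.0031 with DESeq2. Leaving out a library in KMC gave -0.62 to 0.97 for Cdc6, -0.17 to 0.80 for Mcm6, -0.24 to 0.57 for Mcm7, -0.058 to 0.74 for Mcm10, -0.36 to 0.19 for Mcm2 and -0.81 to 0.41 for Cdt1. With all 9 other members as reference, the Mcm6 ratio differed by 1.53 in the libraries labelled HC and by 0.014 in KMC. In the libraries labelled HC, Mcm6 lay between 1.26 and 1.39 under all 14 alternatives, a description since it was chosen there. There 5 to 9 members did not overlap, the most with a library left out, when fewer libraries remain to be separated. Shares of all genes for these alternatives are not given, so nothing is read from this count. The causes of these shifts were not tested. Precision was lowest in KMC, where members had as few as 22 counts and standard errors ran from 0.30 to 0.61, against 0.10 to 0.33 in the HC experiment.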
